A study of Mus musculus with 29 samples.

Results

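The antioxidant and Nrf2 response was followed in mouse whole blood through 10 genes: Hmox1, Nqo1, Slc7a11, Gclc, Gclm, Txnrd1, Srxn1, Prdx1, Gpx1 and Cat. They were chosen by name, with earlier results of these data known. All 10 were found among the 50384 gene symbols of the deposited table. Total RNA was sequenced from the blood of 29 males, whose strain the labels call LJ, drawn at day 120. The irradiated mice received 11.35 Gy to the upper body, and 9 of them have the outcome label Die (irradiated Die) and 10 the outcome label Live (irradiated Live). The 10 sham mice received a sham procedure (0 Gy) and all have the label Live. No group carries an engineered allele or a drug in the labels, and age and the time of death are not given. Blood went into PAX solution at collection, and globin and ribosomal RNA were depleted before stranded libraries were built.

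Nrf2, the transcription factor encoded by Nfe2l2, is held by Keap1 and marked for degradation until oxidants or electrophiles modify Keap1. Freed Nrf2 pairs with small Maf proteins on antioxidant response elements and raises enzymes that make glutathione, recycle thioredoxin and detoxify quinones and heme, while Bach1 represses some of the same sites. In blood, catalase, glutathione peroxidase and peroxiredoxins are known as the main peroxide defences of red cells, and heme oxygenase is known from monocytes and macrophages that break down heme.

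Promoter windows from RefSeq on GRCm38.p6, running from 250 bases before to 50 bases after a transcription start, were matched for 8 of the 10 genes, in 10 windows. Each was searched on both strands for TGACNNNGC, a form of the core of the antioxidant response element, the DNA motif through which Nrf2 is known to act. Other forms of the core were not searched, so a window without a match may hold one. The core was found in 4 windows of 4 genes (Gclm, Prdx1, Txnrd1 and Srxn1), and 12.39% of 32851 windows of the same length held it. These 4 windows are shown because they hold the core letters close to the start, and the capitals mark the match, which in all 4 lies on the reverse strand and so reads as the reverse complement. The match begins 134 bases before the start in Gclm, 133 before it in Prdx1, 92 before it in Txnrd1 and 28 after it in Srxn1.
Gclm, chr3:122245307-122245606, plus strand: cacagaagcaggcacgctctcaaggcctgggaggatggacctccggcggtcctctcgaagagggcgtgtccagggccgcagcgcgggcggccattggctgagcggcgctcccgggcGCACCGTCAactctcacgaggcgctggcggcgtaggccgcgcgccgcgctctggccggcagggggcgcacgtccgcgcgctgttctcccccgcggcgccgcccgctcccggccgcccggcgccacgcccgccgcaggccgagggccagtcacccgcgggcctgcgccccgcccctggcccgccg
Prdx1, chr4:116685349-116685648, plus strand: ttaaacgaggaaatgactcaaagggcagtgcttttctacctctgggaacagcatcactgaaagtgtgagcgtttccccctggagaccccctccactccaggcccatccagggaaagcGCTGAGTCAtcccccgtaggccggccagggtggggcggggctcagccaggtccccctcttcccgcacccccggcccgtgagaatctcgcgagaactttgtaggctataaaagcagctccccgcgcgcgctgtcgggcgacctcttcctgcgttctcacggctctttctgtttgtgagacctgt
Txnrd1, chr10:82858956-82859255, plus strand: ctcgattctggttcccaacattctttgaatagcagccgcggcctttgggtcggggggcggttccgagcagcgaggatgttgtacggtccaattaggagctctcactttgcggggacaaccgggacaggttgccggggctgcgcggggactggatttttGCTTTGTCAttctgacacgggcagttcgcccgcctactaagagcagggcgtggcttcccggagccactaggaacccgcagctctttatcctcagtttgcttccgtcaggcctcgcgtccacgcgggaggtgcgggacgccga
Srxn1, chr2:152105274-152105573, plus strand: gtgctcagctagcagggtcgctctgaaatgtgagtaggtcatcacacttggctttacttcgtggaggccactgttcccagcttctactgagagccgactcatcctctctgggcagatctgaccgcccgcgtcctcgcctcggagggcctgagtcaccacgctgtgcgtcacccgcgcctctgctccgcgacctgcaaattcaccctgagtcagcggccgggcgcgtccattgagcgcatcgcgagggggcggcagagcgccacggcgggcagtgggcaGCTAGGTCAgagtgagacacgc
The windows of Nqo1, Slc7a11, Gpx1 and Cat and the other 2 starts of Txnrd1 did not hold these letters. The motif AGATAA, bound by GATA factors that are known in red cell precursors, was in 0 of the 10 windows and in 11.18% of all windows. A match or its absence says only which letters stand in this stretch.

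None of the 10 genes differed between groups at the threshold used, a Benjamini-Hochberg adjusted p under 0.05 in limma over 24310 genes. All values are normalised counts, and changes are log2 differences of (value + 0.5). Their levels in blood spanned a wide range. Per kb of the longest coding transcript, the mean over 29 libraries was 75111 for Gpx1, 18063 for Cat, 2261 for Gclm, 639 for Srxn1, 616 for Prdx1, 323 for Gclc, 137 for Txnrd1, 130 for Hmox1, 103 for Nqo1 and 16.1 for Slc7a11. Neighbours in this order overlapped over the libraries, except Slc7a11, whose highest library lay below the lowest library of each other gene on the per-kb scale. No gene was at 0 in any library.

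**Figure D1:**
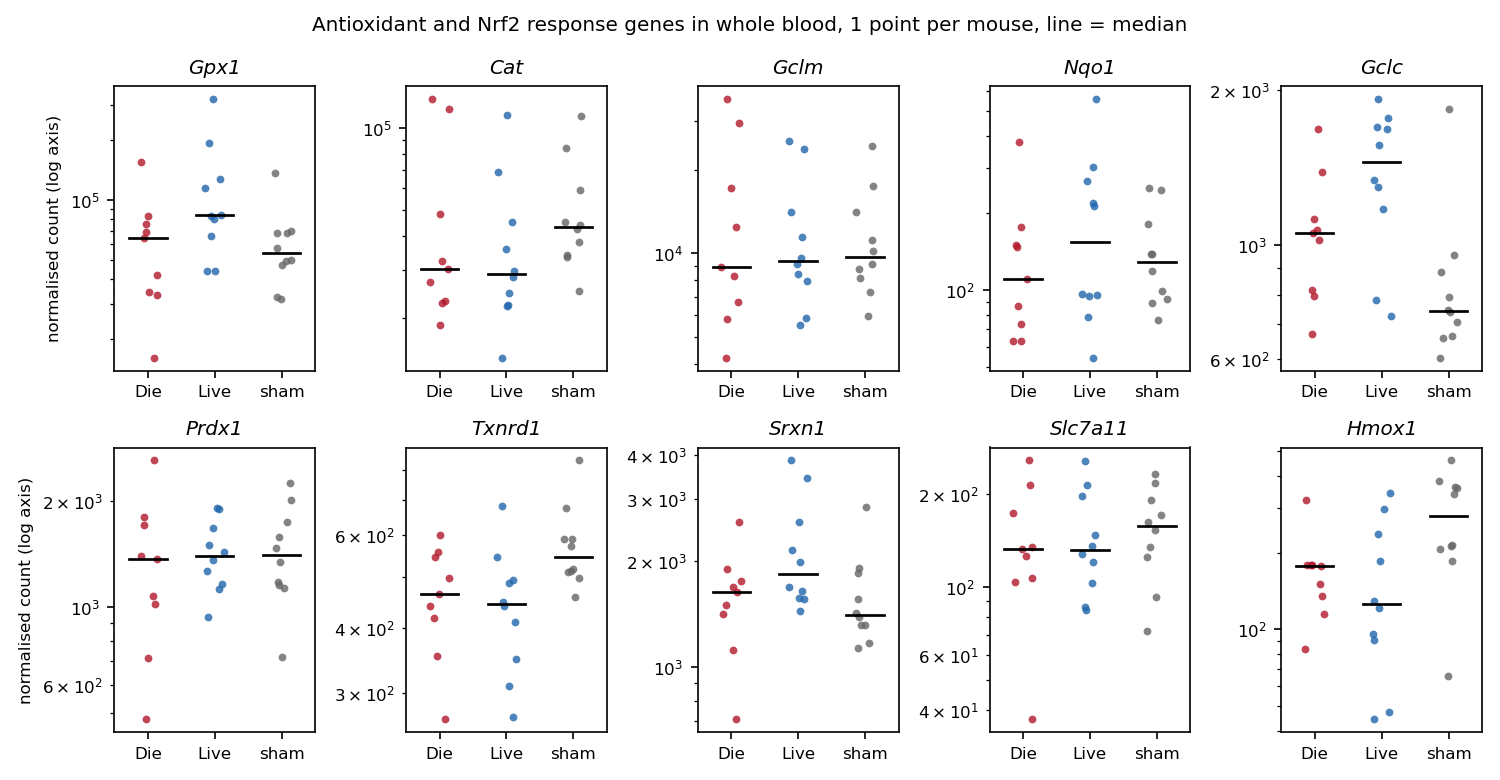
Normalised counts (log axis, a separate scale for each gene) of the 10 genes in irradiated Die (n = 9), irradiated Live (n = 10) and sham mice (n = 10), 1 point per mouse, with a line at the median. The groups overlap for every gene, with Gclc above the sham median in 17 of 19 irradiated mice and Hmox1 below it in 16 of 19.

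A set of 3 libraries stood apart before any comparison: irradiated Die replicates 2 and 14 and sham replicate 1 had 754, 506 and 828 of 11519 expressed genes (mean of at least 50) listed at 0, against at most 220 in the other libraries. Approximate depth ranged from 22.9 to 36.1 M reads in Die, 21.8 to 41.2 M in Live and 19.1 to 31.8 M in sham mice. The share of each library taken by 2 genes for 7S RNA, an abundant non-coding RNA, was 14.2 ± 10.8% in Die, 27.4 ± 9.34% in Live and 17.9 ± 6.57% in sham mice (SD, n = 9, 10 and 10). All listed markers of blood cells that were found were detected except Epx, and the lung epithelial genes Sftpc and Scgb1a1 were 0 in every library. In such bulk samples, fewer cells of a type and less RNA per cell cannot be told apart.

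Against sham, the irradiated mice as a whole (the equally weighted mean of Die and Live) had 0 of 10 genes past the adjusted threshold, which 0.0165% of all genes passed. At an unadjusted p under 0.05, Gclc was higher and Hmox1 and Txnrd1 were lower, so 3 of 10 genes, against 7.4% of all genes. In Live against sham, 0 of 10 passed the adjusted threshold (0.0411% of all genes did), and 5 of 10 had an unadjusted p under 0.05 (7.68% of all genes). These were Gclc, Srxn1 and Gpx1 on the higher side and Hmox1 and Txnrd1 on the lower. In Die against sham, limma called 0 of 10 (0% of all genes) and 0 of 10 had an unadjusted p under 0.05 (8.67% of all genes). Without the 3 libraries with many genes at 0, Hmox1 (-0.76, p = 0.0403) and Gclc (0.45, p = 0.0449) were under 0.05 in Die against sham. In Die against Live, limma called 0 of 10 (0% of all genes), and Gpx1 and Srxn1 had an unadjusted p under 0.05, both on the lower side, with 10.3% of all genes at that level. The median log2 change of the 10 genes was -0.03, -0.0042, -0.18 and -0.16 in the 4 comparisons as listed here, beside 0.02, 0.01, 0.02 and 0.00 over all genes tested. The comparisons share mice, and the genes vary together as described further on, so the counts are not independent of each other. The number of all genes called moved with the libraries left out: without sham replicate 1 it was 75 in irradiated against sham, 54 in Live against sham, 16 in Die against sham and 0 in Die against Live, and without the 3 libraries 92, 166, 2 and 0. The count for the 10 genes was 0 in each of these.

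**Figure D2:**
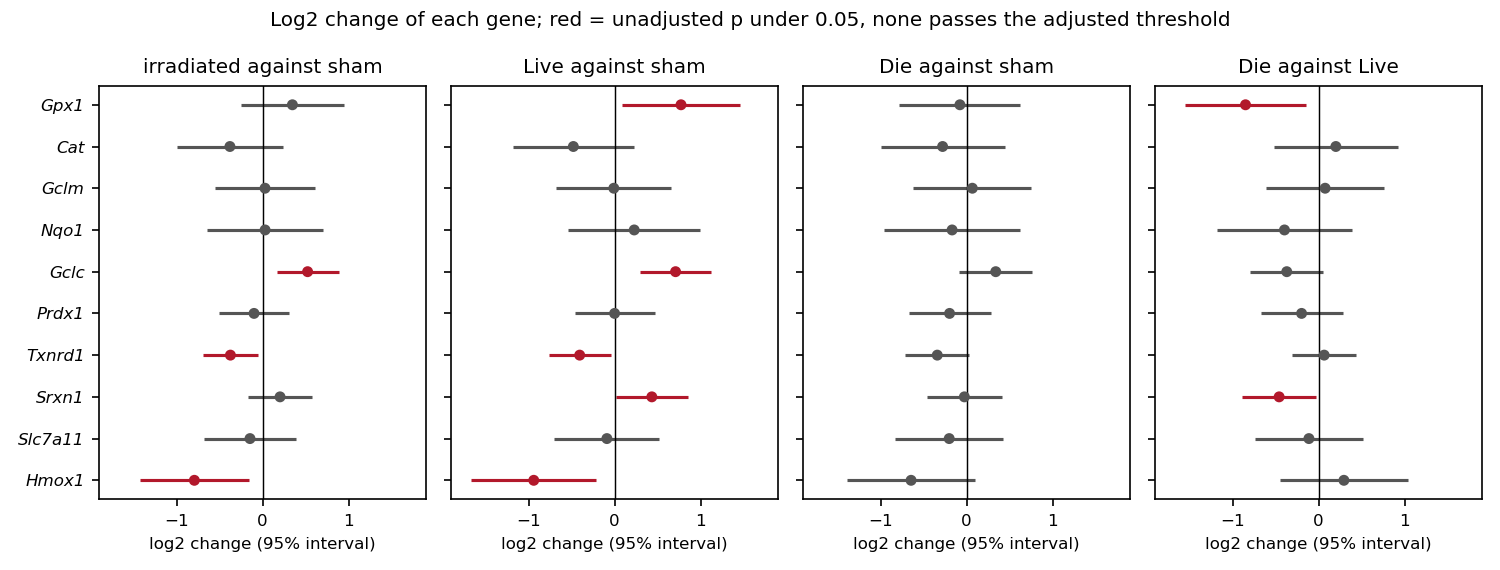
Log2 change of each gene with its 95% interval from limma, in the 4 comparisons, with red for an unadjusted p under 0.05. In Live against sham 5 of the 10 intervals lie off 0, and in Die against sham none does.

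Hmox1, heme oxygenase 1, which opens heme into biliverdin, iron and carbon monoxide, lies on chromosome 8 at 75093621 to 75100589 (GRCm38, plus strand). Its normalised count had a lowest, median and highest value of 84.0, 178 and 321 in Die mice, of 44.3, 125 and 344 in Live mice and of 65.8, 278 and 461 in sham mice. The groups overlapped, but 16 of 19 irradiated mice were below the sham median, and 4 sham mice were above every irradiated mouse. The log2 change was -0.79 ± 0.31 (SE) in irradiated against sham (p = 0.0161, adjusted p = 0.541). It was -0.65 ± 0.37 in Die against sham (p = 0.0885) and -0.94 ± 0.36 in Live against sham (p = 0.0130, adjusted p = 0.458). Die and Live mice differed by 0.29, with a 95% interval from -0.45 to 1.04.

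Monocyte markers lay on the same side as Hmox1. Like all marker lists here, theirs was chosen with earlier results of these data known, so it is not independent evidence. All 11 listed classical monocyte markers had a change below 0 in irradiated against sham, with a median log2 change of -0.89 beside 0.02 over all genes, and Mpeg1 passed the threshold (-1.06, adjusted p = 0.0167). Their summed level ranged from 55294 to 138118 in Die, from 56668 to 145293 in Live and from 85260 to 245145 in sham mice, with Lyz2 giving 55.0% of the sum. With the mean log2 level of these markers as a covariate, a fit added after the data were seen, the Hmox1 change was 0.05 (p = 0.870) in irradiated against sham and 0.02 in Live against sham. Whether monocyte content accounts for the Hmox1 values was not tested.

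Nqo1, the quinone reductase often used as a readout of Nrf2, lies on chromosome 8 at 107388225 to 107403206 (minus strand). It had 62.9, 111 and 379 (lowest, median and highest normalised count) in Die, 54.2, 154 and 558 in Live and 76.1, 128 and 249 in sham mice. The groups overlapped in both directions, with 4 irradiated mice above and 4 below every sham mouse. Nqo1 had a log2 change of 0.03 ± 0.33 in irradiated against sham and -0.40 ± 0.39 in Die against Live (adjusted p = 0.729). A change as large as 0.70 or -0.64 lies within the 95% interval of irradiated against sham.

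Among the glutathione synthesis genes, Slc7a11 encodes the cystine importer, Gclc the catalytic subunit of glutamate-cysteine ligase and Gclm its modifier subunit. Gclc (chromosome 9 at 77754535 to 77794485, plus strand) had 670, 1052 and 1675 in Die, 728, 1447 and 1918 in Live and 603, 743 and 1834 in sham mice, as lowest, median and highest normalised count. It was above the sham median in 8 of 9 Die and 9 of 10 Live mice, although sham replicate 10 lay above all irradiated mice but 1. The Gclc change was 0.52 ± 0.18 in irradiated against sham (p = 0.00549, adjusted p = 0.399), 0.34 ± 0.21 in Die against sham (p = 0.112) and 0.71 ± 0.20 in Live against sham (p = 0.00129, adjusted p = 0.208). In Die against Live it was -0.37 ± 0.21 (p = 0.0836). Without sham replicate 10, Gclc passed the threshold in Live against sham (0.84, adjusted p = 0.0499). With the classical monocyte level as a covariate, Gclc was 0.21 (p = 0.324) in irradiated against sham and 0.36 in Live against sham.

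Gclm, on chromosome 3 at 122245557 to 122270732 (plus strand), had group medians close to each other. Its normalised count was 4213, 8967 and 35862 in Die, 5543, 9372 and 25255 in Live and 5973, 9697 and 24284 in sham mice. The highest library of each group lay far above its median. The log2 change of Gclm was 0.03 ± 0.29 in irradiated against sham and 0.08 ± 0.34 in Die against Live, and the sign of the first turned when libraries were rescaled to a common total of all values other than 7S RNA and hemoglobin (-0.09), as did that of Nqo1 (-0.09). The ratio of Gclc to Gclm, chosen after their values were seen and not tested between groups, had a median of 0.125 in Die, 0.130 in Live and 0.0781 in sham mice. It ranged from 0.0227 to 0.189, from 0.0563 to 0.227 and from 0.0550 to 0.111 in that order. Above every sham mouse lay 5 Die and 7 Live mice, and below every sham mouse 2 Die mice. Within groups, its Pearson's r was -0.499 with the number of expressed genes at 0 and 0.450 with 7S RNA share. Adjusted p was 0.0327 and 0.0575 for r, and 0.109 and 0.0963 for Spearman's rho (permutation test, 12 relations). Gclm overlaps Gm6061 on the same strand and Gm17494 on the opposite one, with mean values of 18.7 and 59.5 beside 12638 for Gclm.

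Slc7a11, on chromosome 3 at 49892526 to 50443614 (minus strand), was the lowest of the 10 per kb. It had 37.3, 132 and 256 in Die, 83.9, 132 and 256 in Live and 72.0, 157 and 232 in sham mice. The groups overlapped over nearly their whole range. Its log2 change was -0.15 ± 0.26 in irradiated against sham (adjusted p = 0.929) and -0.11 ± 0.31 in Die against Live.

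In the thioredoxin and peroxiredoxin system, Txnrd1 encodes the cytosolic thioredoxin reductase, Prdx1 a peroxiredoxin that it keeps reduced through thioredoxin, and Srxn1 sulfiredoxin, which repairs overoxidised peroxiredoxins. Txnrd1 (chromosome 10 at 82833951 to 82897712, plus strand) had 267, 464 and 600 in Die, 270, 444 and 682 in Live and 458, 545 and 834 in sham mice. Below the lowest sham mouse lay 10 of the 19 irradiated mice, 4 Die and 6 Live. The log2 change was -0.37 ± 0.16 in irradiated against sham (p = 0.0217, adjusted p = 0.559), -0.34 ± 0.18 in Die against sham (p = 0.0702) and -0.41 ± 0.18 in Live against sham (p = 0.0287, adjusted p = 0.572). Without the 3 libraries with many genes at 0, it was -0.23 (p = 0.104) in irradiated against sham. In fits added after the data were seen, with the classical monocyte level as a covariate, Txnrd1 was -0.24 (p = 0.238) in irradiated against sham and -0.25 (p = 0.269) in Live against sham, and with the platelet level it was -0.30 (p = 0.125) in Live against sham. The intervals of Eid3, Gm38560 and Gm47073 overlap Txnrd1, and the first 2 of these had mean values of 17.8 and 5.70 beside 494 for Txnrd1.

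Srxn1, on chromosome 2 at 152105516 to 152111376 (plus strand), had 709, 1626 and 2583 in Die, 1444, 1838 and 3855 in Live and 1133, 1407 and 2847 in sham mice. All 10 Live mice were above the sham median, and 3 Die mice were below every Live mouse. The log2 change was 0.43 ± 0.21 in Live against sham (p = 0.0436, adjusted p = 0.624), -0.03 ± 0.21 in Die against sham (0.0031 with upper-quartile scaling) and -0.46 ± 0.21 in Die against Live (p = 0.0378, adjusted p = 0.457). Without the 3 libraries with many genes at 0, the last was -0.40 (p = 0.0870). With libraries rescaled to the total without 7S RNA and hemoglobin, Srxn1 was 0.28 (p = 0.209) in Live against sham. In Die against Live it was then -0.39 (p = 0.0909).

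Platelet markers lay on the same side as Srxn1. All 10 had a change below 0 in Die against Live, with a median of -0.57 beside 0.00 over all genes, and none of them passed the adjusted threshold. Their summed level was between 64838 and 126788 in Die, between 91335 and 189554 in Live and between 70923 and 220756 in sham mice, and all 10 were above 0 in every library. With the mean log2 platelet level as a covariate, added after the data were seen, Srxn1 was 0.06 (p = 0.716) in Live against sham and -0.0087 (p = 0.961) in Die against Live. Whether platelet content accounts for the Srxn1 values was not tested.

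Prdx1, on chromosome 4 at 116685544 to 116700822 (plus strand), had 478, 1368 and 2607 in Die, 937, 1392 and 1906 in Live and 720, 1401 and 2253 in sham mice. Its 3 medians were close to each other, and the Die mice spread over both ends of the range. Irradiated and sham mice differed by -0.10 ± 0.20 on the log2 scale (95% interval from -0.50 to 0.31), and Die and Live mice by -0.20 ± 0.23.

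Gpx1 and Cat remove hydrogen peroxide, Gpx1 with glutathione as the reductant and catalase without one. Gpx1 (chromosome 9 at 108338903 to 108340343, plus strand) had 16083, 64295 and 155302 in Die, 43662, 83574 and 319876 in Live and 31718, 53734 and 135388 in sham mice. In all, 4 Die mice were below every Live mouse, and 8 of 10 Live mice were above the sham median. The log2 change was 0.77 ± 0.34 in Live against sham (p = 0.0281, adjusted p = 0.568), -0.08 ± 0.35 in Die against sham and -0.85 ± 0.35 in Die against Live (p = 0.0193, adjusted p = 0.424). Without the 3 libraries with many genes at 0, the last was -0.70 (p = 0.0574). Erythroid markers were below 0 in Die against Live for 7 of 11 genes, with a median of -0.28, and their summed level ranged from 877665 to 3636690 in Die, from 1311000 to 5789090 in Live and from 1178110 to 4828460 in sham mice. With the summed erythroid and neutrophil marker levels as covariates, the Gpx1 change was 0.34 (p = 0.0508) in Live against sham and -0.29 (p = 0.107) in Die against Live. With the mean log2 erythroid marker level alone, a fit added after the data were seen, it was 0.51 (p = 0.00633) and -0.58 (p = 0.00284) in those comparisons. With 7S RNA share as a covariate the same 2 changes were 0.54 (p = 0.109) and -0.43 (p = 0.256), and with the platelet level, also added, 0.50 (p = 0.166) and -0.53 (p = 0.173). Whether red cell content or library make-up accounts for the Gpx1 values was not tested.

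Cat, on chromosome 2 at 103453849 to 103485160 (minus strand), had 18799, 30287 and 127973 in Die, 14258, 29079 and 111934 in Live and 25101, 43143 and 111039 in sham mice. Of the 19 irradiated mice, 13 were below the sham median and 3 were above every sham mouse. Its log2 change was -0.38 ± 0.30 in irradiated against sham (adjusted p = 0.842), -0.48 ± 0.35 in Live against sham (adjusted p = 0.831) and 0.20 ± 0.35 in Die against Live (adjusted p = 0.872). With the mean log2 erythroid level as a covariate, Cat was at -0.51 (p = 0.00124), -0.76 (p = 7.63e-05, adjusted p = 0.0886) and 0.49 (p = 0.00787) in these 3 comparisons. With the erythroid and neutrophil sums it was at -0.45 (p = 0.0341), -0.72 (p = 0.00487) and 0.55 (p = 0.0353), and with the classical monocyte level at -0.87 (p = 0.0230), -1.04 (p = 0.0180) and 0.33 (p = 0.344). With 7S RNA share as a covariate, the Cat change in Die against Live had the other sign, at -0.21 (p = 0.592). None of these fits took Cat past the adjusted threshold.

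The ratio of Gpx1 to Cat within a library was chosen after both genes had been seen and was not tested between groups. Its lowest, median and highest value was 0.531, 1.46 and 2.79 in Die, 1.76, 2.84 and 4.62 in Live and 0.386, 1.31 and 1.84 in sham mice. A ratio above every sham mouse was seen in 9 of 10 Live mice and 3 of 9 Die mice. Within groups the ratio followed the 7S RNA share, with Pearson's r = 0.902 and Spearman's rho = 0.816 over 29 libraries. Both had a permutation p of 1e-05, the smallest that 100000 draws can give, and an adjusted p of 0.00012 over 12 relations. Without the 2 libraries farthest from the median share, r was 0.826. The ratio also had r = -0.713 with the number of expressed genes at 0 (adjusted p = 0.00228). It had r = 0.475 with hemoglobin share and 0.441 with depth (adjusted p = 0.0327 for both). For these 3 measures the adjusted p of rho was 0.0655, 0.256 and 0.0655. The libraries with many genes at 0 had ratios of 0.705 (Die replicate 2), 0.531 (Die replicate 14) and 0.386 (sham replicate 1). What part library make-up has in the ratio's group values was not tested. The third ratio among the 12 relations, Gclm to Cat, was also not tested between groups. Its median was 0.280 in Die, 0.321 in Live and 0.238 in sham mice. Above every sham mouse lay 5 Die and 7 Live mice. Within groups its r was -0.065 with 7S RNA share, -0.027 with expressed genes at 0 and -0.377 with depth (adjusted p = 0.822, 0.893 and 0.11, permutation test).

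**Figure D3:**
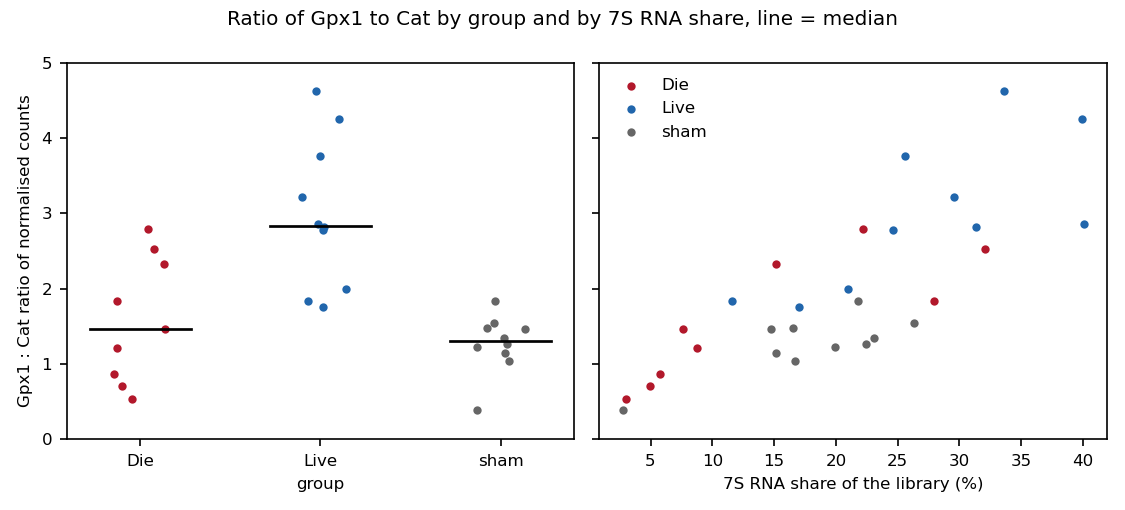
Ratio of Gpx1 to Cat normalised counts by group (left, line at the median) and against the 7S RNA share of the library in percent (right), 1 point per mouse. Live mice range from 1.76 to 4.62 and sham mice from 0.386 to 1.84, and within groups the ratio is higher in libraries with a larger 7S RNA share.

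Variation between mice of the same group was then related to marker sums of 11 cell or tissue types, hemoglobin share, 7S RNA share and depth. Deviations from the group mean on the log2 scale were used, with p from permutations within groups, adjusted over 140 relations. Pearson's r and Spearman's rho both passed for 8 relations, all positive. The share of other genes that would follow the same sums was not computed. Gpx1 followed the erythroid sum most closely (r = 0.903, rho = 0.857, adjusted p = 0.000467 and 0.000933, permutation test), and r was 0.870 without the 2 libraries farthest from the median. Nqo1 followed it with r = 0.756 and rho = 0.702 (adjusted p = 0.000467 and 0.000933), and Cat with r = 0.682 and rho = 0.570 (adjusted p = 0.0063 and 0.0419), with r of 0.688 and 0.557 without those 2 libraries. Gclm missed the threshold on rho (r = 0.630, rho = 0.521, adjusted p = 0.013 and 0.0577).

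Srxn1 followed the platelet sum (r = 0.768, rho = 0.747, adjusted p = 0.000467 and 0.000933, permutation test), with r = 0.679 without the 2 farthest libraries. Hmox1 followed the classical monocyte sum (r = 0.556, rho = 0.566, adjusted p = 0.0351 and 0.0419), with r = 0.444 without the 2 farthest, and the dendritic cell sum (r = 0.625, rho = 0.616), with r = 0.459. Irf8 alone makes up 73.4% of the dendritic cell sum. Prdx1 also followed the classical monocyte sum (r = 0.551, rho = 0.546, adjusted p = 0.0351 and 0.0419), and r was 0.320 without the 2 farthest libraries. The last of the 8 was Gpx1 with hemoglobin share (r = 0.608, rho = 0.605), where r was 0.498 without the 2 farthest. Taken by group, Hmox1 with the classical monocyte sum had r = 0.621 and rho = 0.250 in Die, r = 0.345 and rho = 0.406 in Live and r = 0.815 and rho = 0.685 in sham mice, with permutation p for r of 0.0858, 0.323 and 0.00403. Cat with the erythroid sum had r = 0.717, 0.778 and 0.536 in Die, Live and sham mice (permutation p = 0.0311, 0.0101 and 0.113), Nqo1 had r = 0.850, 0.699 and 0.814, and Gpx1 had r = 0.939, 0.880 and 0.936. Srxn1 with the platelet sum had r = 0.596, 0.896 and 0.878 (permutation p = 0.0910, 0.00114 and 0.00264). Adjusted over the 24 relations taken by group, p for r stayed above 0.05 for Hmox1 in Die and Live, for Cat in sham and for Srxn1 in Die mice, and p for rho stayed above 0.05 for Hmox1, Cat and Srxn1 in each group and for Nqo1 and Gpx1 in Live mice. The gene and the marker sum of a point come from the same library and share its scaling and cell make-up.

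Of the 8 relations, 4 also passed both measures without the 3 libraries with many genes at 0: Gpx1, Nqo1 and Cat with the erythroid sum (r = 0.888, 0.736 and 0.780) and Srxn1 with the platelet sum (r = 0.810). In those 26 libraries Hmox1 with the classical monocyte sum had r = 0.450 (adjusted p = 0.195), Hmox1 with the dendritic cell sum r = 0.513, Prdx1 with the classical monocyte sum r = 0.304 (adjusted p = 0.368) and Gpx1 with hemoglobin share r = 0.487. In all, 9 relations passed both measures there, 5 positive and 4 negative. The negative ones were Gclm and Cat with the classical monocyte sum (r = -0.58 and -0.62) and Nqo1 and Gclc with the dendritic cell sum (r = -0.65 and -0.78), against r of -0.41, -0.48, -0.34 and -0.50 over all 29 libraries. The fifth positive one was Srxn1 with the lung and vessel sum (r = 0.630), of which Pecam1 makes up 98.5%. Single markers varied. For Gpx1, r ran from 0.423 with Klf1 to 0.966 with Tspan33 over 11 erythroid markers, and for Srxn1 from 0.284 with Gp1ba to 0.776 with Tubb1 over 10 platelet markers.

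**Figure D4:**
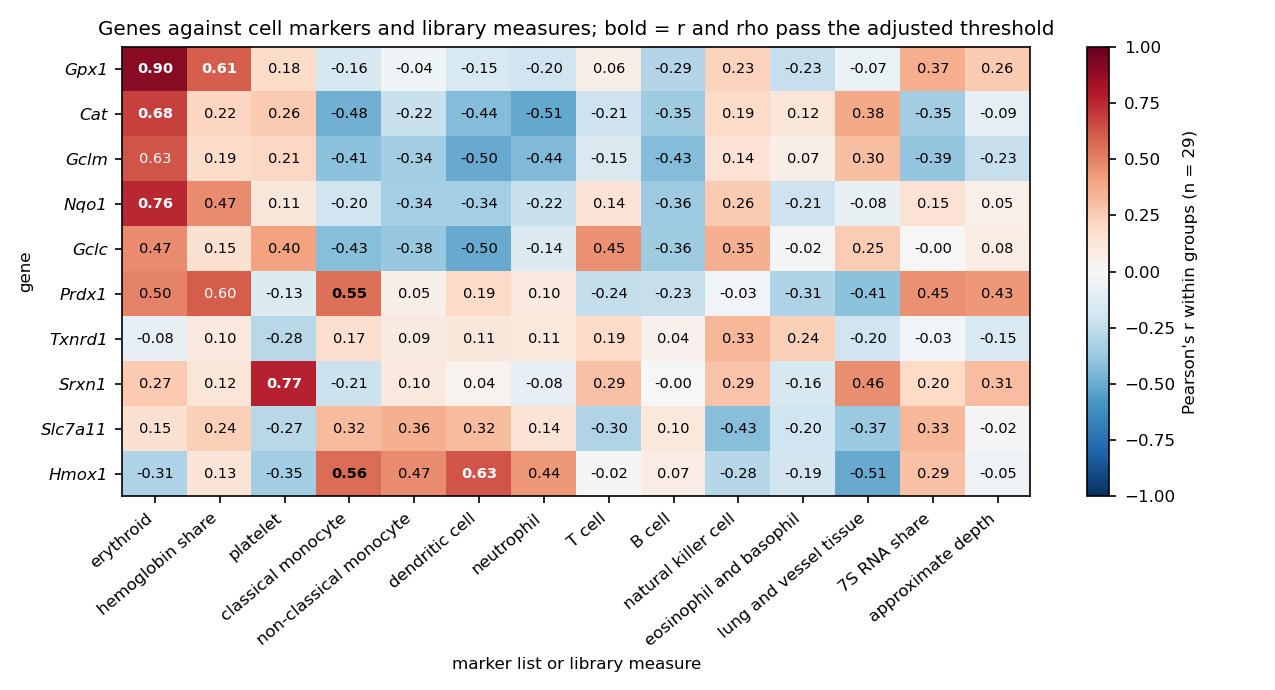
Pearson's r of within-group deviations (log2, n = 29 libraries) between each gene (rows) and 11 marker sums and 3 library measures (columns), with bold numbers where r and rho both pass the adjusted threshold. The 8 bold cells are led by Gpx1 with the erythroid sum (0.90) and Srxn1 with the platelet sum (0.77).

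Between the genes themselves, 11 of 45 pairs passed on both r and rho within groups, 8 positive and 3 negative. The share of pairs of other genes that would pass was not computed, so the count describes these genes only. Gclm and Cat were the closest pair (r = 0.937, rho = 0.908, adjusted p = 0.000225 for both, permutation test), with r = 0.911 without the 2 farthest libraries. Nqo1 and Gpx1 came next (r = 0.849, rho = 0.848, adjusted p = 0.000225 for both), with r = 0.772 without the 2 farthest. Gclm with Cat had r = 0.938 in Die, 0.921 in Live and 0.977 in sham mice, so it held in each group taken alone. Nqo1 with Gpx1 had r = 0.852, 0.864 and 0.846 in the same order. The positive pairs joined Nqo1, Gclm, Gpx1, Cat and Gclc, and all 11 pairs also passed without the 3 libraries with many genes at 0. In those 26 libraries 15 pairs passed both measures, 10 positive and 5 negative. The added pairs were Hmox1 with Nqo1 (r = -0.63) and Gpx1 (-0.65), and Gclc with Gpx1 (0.71) and Cat (0.59).

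Of the 11 pairs over all 29 libraries, the 3 negative ones all involved Hmox1. It had r = -0.57 with Cat, -0.55 with Gclm and -0.51 with Gclc (rho = -0.57, -0.54 and -0.51, with adjusted p between 0.00568 and 0.0364 for r, permutation test). Without the 2 libraries farthest from the median of Hmox1, these r were -0.45, -0.47 and -0.51. Txnrd1, Srxn1, Slc7a11 and Prdx1 were in none of the 11 pairs.

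**Figure D5:**
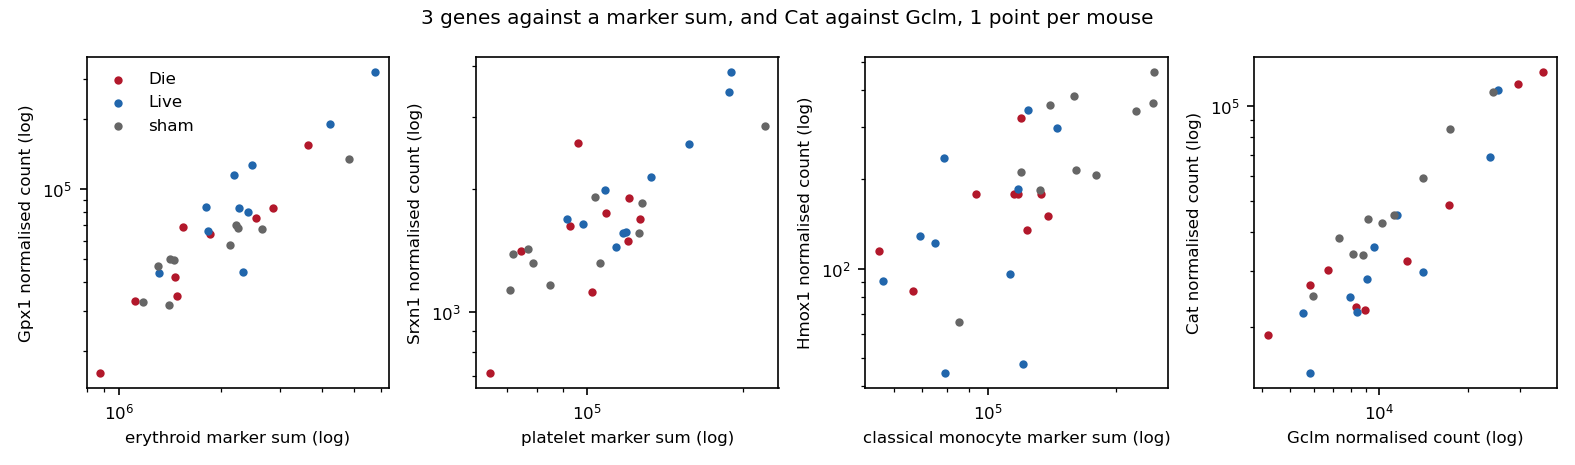
Normalised counts of Gpx1, Srxn1 and Hmox1 against the erythroid, platelet and classical monocyte marker sums, and of Cat against Gclm (all axes log), 1 point per mouse, coloured by group. Within groups r is 0.903, 0.768, 0.556 and 0.937 from left to right.

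The genes whose within-group pattern was most like that of Gclc and Gpx1, the 2 genes with the smallest p in irradiated against sham and in Die against Live, were taken from 11518 genes with a mean of at least 50. For Gclc they were Ap2m1 (r = 0.82), Setd3 (r = 0.80) and Slc16a1 (r = 0.79) over 29 libraries. For Gpx1 they were Adipor1, Map1lc3b and Tspan33 (r = 0.97 each), and Tspan33 is also in the erythroid list.

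Around these genes, 5 pathway lists with 76 genes were described: Nrf2 regulators, glutathione synthesis and use, thioredoxins with peroxiredoxins and superoxide dismutases, NADPH supply, and heme, iron and quinone handling. None of the 76 passed the adjusted threshold in limma in any of the 4 comparisons. At an unadjusted p under 0.05, 1 was higher and 12 lower in irradiated against sham, where 838 of all genes were higher and 961 lower (7.4%). In Live against sham 6 were higher and 8 lower (all genes 913 and 955, 7.68%), in Die against sham 2 higher and 9 lower (1005 and 1103, 8.67%), and in Die against Live 3 higher and 9 lower (1220 and 1294, 10.3%). Their median log2 change was -0.11, 0.01, -0.23 and -0.22 in that order, beside 0.02, 0.01, 0.02 and 0.00 over all genes tested.

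Nfe2l2, which encodes Nrf2 itself, had 821, 1305 and 1746 as lowest, median and highest normalised count in Die, 638, 1169 and 1437 in Live and 1239, 1567 and 1995 in sham mice. Its change was -0.42 ± 0.13 in irradiated against sham (p = 0.00370, adjusted p = 0.367) and -0.53 ± 0.15 in Live against sham (adjusted p = 0.216). Keap1 was at -0.44 and -0.52 in the same 2 comparisons (adjusted p = 0.653 and 0.595). NADPH carries the electrons for glutathione and thioredoxin reduction, and the NADPH list holds enzymes that make it and others of the same pathways. In this list, 7 of 8 genes were below 0 in irradiated against sham (median -0.42) and 5 in Live against sham (-0.22). In Die against sham 8 were below 0 (-0.45), and in Die against Live 6 (-0.13). Of all genes, 52.2%, 50.9%, 51.5% and 50.4% were above 0 in these comparisons, in that order. Idh1, the cytosolic NADP-dependent isocitrate dehydrogenase, had the smallest p of the 76 in Live against sham (-1.09 ± 0.24, p = 8.48e-05, adjusted p = 0.102), with 247, 532 and 1363 in Live and 692, 1106 and 1657 in sham mice. Pgd of the pentose phosphate pathway was at -0.55 ± 0.19 in irradiated against sham (adjusted p = 0.399).

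Gpx4, which reduces lipid peroxides, had 1673, 3056 and 7401 in Die, 4697, 6007 and 13674 in Live and 2525, 4300 and 7387 in sham mice. Its change was 0.74 ± 0.24 in Live against sham (adjusted p = 0.305) and -0.96 ± 0.25 in Die against Live (p = 0.000475, adjusted p = 0.348), the same signs as Gpx1. Ftl1, the ferritin light chain that stores iron, was at -1.01 ± 0.33 in Die against Live (adjusted p = 0.361), and Prdx6 and Txn2 were at -0.50 and -0.76 (adjusted p = 0.371 for both). Of the thioredoxin and peroxiredoxin list, 10 of 18 genes were below 0 in irradiated against sham, 7 in Live against sham, 13 in Die against sham and 15 in Die against Live, with medians of -0.02, 0.05, -0.17 and -0.36. Cbr3, a carbonyl reductase, was listed at 0 in 3 Die and 5 Live libraries and in 0 sham libraries, with medians of 13.6, 5.50 and 40.2, and its fitted change of -3.15 in irradiated against sham (adjusted p = 0.295) depends on the pseudocount.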

How the data were processed

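Whole-blood total RNA from 29 mice was sequenced. The authors deposited a normalised signal per gene symbol, which is called a normalised count in the text. Per the submitters' processing notes, the build was GRCm38 and the tools included DESeq2, sleuth, kallisto 0.44.0 and bcl2fastq 2.19. What each tool did, and whether counting used strand, is not stated in those notes or the labels. Over the libraries, 2.15% to 17.7% of values came out as whole reads (tolerance 0.01) at the step seen in low values, so reads were not recovered and no count test was run. A test for counts had also been planned, and the normalised values led to limma. Approximate depth was 19.1 to 41.2 M reads, taken as the total over the value of 1 read.

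limma 3.58.1 with a trend (R 4.3.3) was fitted on log2(value + 0.5) for 24310 genes (mean of 1 or more), in 1 model of 3 group means, two-sided. Relations were computed with scipy 1.17.1, pandas 2.3.3 and numpy 2.4.6 under Python 3.11.15, from 100000 permutations within groups, and plots were drawn with matplotlib 3.10.9. Gene positions are from GENCODE M21. The 10 genes, the pathway lists and the marker lists (101 entries, 100 found) were chosen with earlier results of these data known. All 10 genes are named, and of each pathway list the text draws on the 2 genes with the smallest p per comparison. On simulated data with 24310 genes, limma recovered 49% (irradiated against sham), 39% (Live against sham), 47% (Die against sham) and 41% (Die against Live) of genes changed by 1 on the log2 scale. Between 3.91% and 6.57% of calls were wrong. In each run 100 genes were changed by 1 and 100 others by 2, all with a mean of at least 50, with independent normal noise. Many changed genes ease the adjusted threshold, so these rates may be too high for data with few calls, such as these.

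The labels give each library its own replicate number and do not say whether it is more than a name, so p-values measure the spread between these libraries. Same-numbered irradiated and sham libraries (10 pairs) had correlations of deviations between -0.132 and 0.0304, with 0 over 0.1, so the numbers were not used as pairs. No 2 libraries held identical values (highest correlation 0.951). The labels name no batch or date.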

Additional observations from a re-analysis of the deposited data

Results flagged for a closer look

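In 30 groups of values (10 genes in 3 groups), 7 held a highest library that lay far from the nearest of the others relative to the range of its group. The limit is set so that chance flags about 1 in 20 groups of independent, normally distributed values. The values here are skewed and come from the same libraries, so the number of such groups was not compared with chance. Hmox1 was 321.347 in irradiated Die replicate 11, where the next Die library had 178. Nqo1 was 379.377 in irradiated Die replicate 4, where the next had 176, and 557.832 in irradiated Live replicate 18, where the next had 301. Gpx1 was 155302 in irradiated Die replicate 4, where the next had 83038. In sham replicate 10, Gclc was 1834.46, Srxn1 was 2846.99 and Gpx1 was 135388, where the next sham libraries had 956, 1906 and 69939. All 7 were the highest of their group. Irradiated Die replicate 4, irradiated Live replicate 18 and sham replicate 10 also had the highest erythroid sum of their groups.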

How the results depend on the processing

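In all, 44 other settings were run, 29 of which left out a library in turn. The number of the 10 genes past the adjusted threshold was 0 in 172 of 175 counts. It was 2 with limma array weights in irradiated against sham (Hmox1 -0.97, adjusted p = 0.0365, and Gclc 0.63, adjusted p = 0.0163) and 2 in Live against sham (Hmox1 -1.13, adjusted p = 0.0288, and Gclc 0.79, adjusted p = 0.00812), where 481 and 716 of all genes were called. With a library left out it was between 0 and 1 in Live against sham, 1 without sham replicate 10. The cause was not tested. Of 1750 values for single genes, 1745 kept their sign and side of the threshold or changed sign without being called, 5 passed it and none was called with the other sign. A different sign occurred in 121 values, none with p under 0.05. Of the 10 changes with an unadjusted p under 0.05, the 2 of Hmox1 changed sign, only with the classical monocyte covariate. In the replicate block, where a number is only shared, the counts were 0, and Gclc was 0.56 in irradiated against sham and 0.85 in Live against sham. Rescaling to a common total of all values other than 7S RNA and hemoglobin moved the median of all genes by -0.10 in irradiated against sham and -0.11 in Live against sham. The 3 libraries with many genes at 0 limit low genes most, and recovery of changes under 1 on the log2 scale was not simulated.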
